A study of Arabidopsis thaliana with 12 samples.

Results

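Transcript levels of 10 Arabidopsis genes of abscisic acid (ABA) metabolism and response were examined in leaves under heat stress (HS) and non-stress (NS). The genes were taken by locus for their known roles, with earlier results of these data known, from a table of 33557 loci. They comprise the synthesis genes ABA1 (AT5G67030), NCED3 (AT3G14440) and AAO3 (AT2G27150), the catabolic genes CYP707A1 (AT4G19230), CYP707A2 (AT2G29090), CYP707A3 (AT5G45340) and CYP707A4 (AT3G19270), and the response genes RD29A (AT5G52310), RD29B (AT5G52300) and RAB18 (AT5G66400). The 4 groups compared had 3 replicates each, and all plants were 5 weeks old and of the Col-0 ecotype. 35S:HSFA1b HS and 35S:HSFA1b NS plants carried a fusion of heat shock factor HSFA1b to a red fluorescent protein (HSFA1b-RFP) under the broadly active 35S promoter, while WT HS and WT NS plants did not. HS was 37 °C for 30 min, with humidity raised so that the vapour pressure deficit stayed as it was, and NS plants were kept at 23 °C. Leaves were frozen as soon as the stress ended, so each HS value is a single early time point. The study used 1 chosen 35S:HSFA1b line, so differences between genotypes are those of that line. RNA was sequenced, and each value is an FPKM, a number of fragments scaled to the length of the transcript and the depth of the library.

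ABA is the hormone through which plants close stomata and induce protective proteins when water is short. It is made from carotenoids. Zeaxanthin epoxidase (ABA1) supplies epoxycarotenoids, NCED enzymes cleave these in the step thought to limit synthesis, and the aldehyde oxidase AAO3 makes ABA in the last step. CYP707A cytochromes P450 hydroxylate ABA, which starts its breakdown, and their transcripts often rise with those of NCED3 when ABA accumulates. Binding of ABA to PYR/PYL receptors leads indirectly to active SnRK2 kinases. These activate bZIP factors (ABFs) on ABA-responsive elements (ABREs) of genes such as RD29B and RAB18. Transcript levels alone give neither enzyme activity nor the amount of ABA, which was not measured here.

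All libraries are labelled wild type in the genotype field, but their titles name the overexpressor where it was used, and the titles were followed. HSFA1b itself lay between 330 and 624 FPKM in the 6 columns of 35S:HSFA1b plants, against 3.10 to 7.31 FPKM in the 6 WT columns, so each column matched its genotype. Columns are numbered 0 to 2 within a group and cannot be tied to a single library. Relative depth, read from the steps between low values, ran from 0.574 to 1.39 times that of 1 WT NS column. Leaf mesophyll markers (RBCS1A, LHCB1.1 and RCA) were all present, and root, flower and seed markers were near 0, each list summing to below 0.5 FPKM in every column. However, the 3 mesophyll markers summed to 8861 to 10057 FPKM in 35S:HSFA1b HS, 8212 to 30560 FPKM in 35S:HSFA1b NS, 30906 to 40027 FPKM in WT HS and 32342 to 40879 FPKM in WT NS. The high 35S:HSFA1b NS value was column 2 alone, where RBCS1A was at 15512 FPKM, against 3057 and 3138 FPKM in the other 2 columns. The library names carry 1 of 2 prefixes: 1 prefix covers all 6 WT libraries and 1 of the 35S:HSFA1b NS libraries, the other covers the remaining 5 libraries. Under HS, genotype and library prefix therefore cannot be told apart. Under NS they coincide in large part, since 2 of the 35S:HSFA1b NS libraries carry the other prefix and only 1 carries that of WT. HS against NS in the line also compares 1 prefix with a mixture of both. Guard cell markers (MYB60, KAT1 and FAMA) summed to 39.1 to 40.5 FPKM in 35S:HSFA1b HS, 29.5 to 32.4 in 35S:HSFA1b NS, 14.3 to 24.0 in WT HS and 23.9 to 29.5 in WT NS. The 3 did not move together, since in 35S:HSFA1b HS KAT1 averaged 27.1 FPKM, MYB60 7.09 and FAMA 5.51, against 10.7, 10.13 and 10.2 FPKM in 35S:HSFA1b NS. Phloem companion cell markers overlapped between all groups, at 128 to 181 FPKM. The part of these differences in the results below was not tested. In bulk leaf RNA, fewer cells of a type and less RNA per cell cannot be told apart.

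Differential expression was tested with limma on log2(FPKM + 0.01), with Benjamini-Hochberg adjustment over all genes averaging 1 FPKM or more, and a gene was called at an adjusted p of at most 0.05. All 10 ABA genes passed this filter. CYP707A3 passed it only through its WT HS values, so the filter favoured a difference there. In WT, HS changed 6 of the 10 genes, 4 upward and 2 downward, while 44.5% of the 17710 tested genes were called, 23.7% upward and 20.8% downward. In 35S:HSFA1b plants, HS changed 6 of the 10, 2 upward and 4 downward, against a background of 42.3% of 17720 genes, 22.6% upward and 19.7% downward. Without stress, 1 of the 10 differed in 35S:HSFA1b plants from WT, and it was higher, where 9.77% of all genes were called, 6.12% higher and 3.65% lower. With 10 genes these counts do not set the list apart from the background, so the results are given gene by gene. The median log2 fold change of the 10 was 0.59 in WT under HS, -0.19 in 35S:HSFA1b under HS and 0.11 between the genotypes under NS, beside medians of 0.02, 0.02 and -0.01 over all tested genes.

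**Figure D1:**
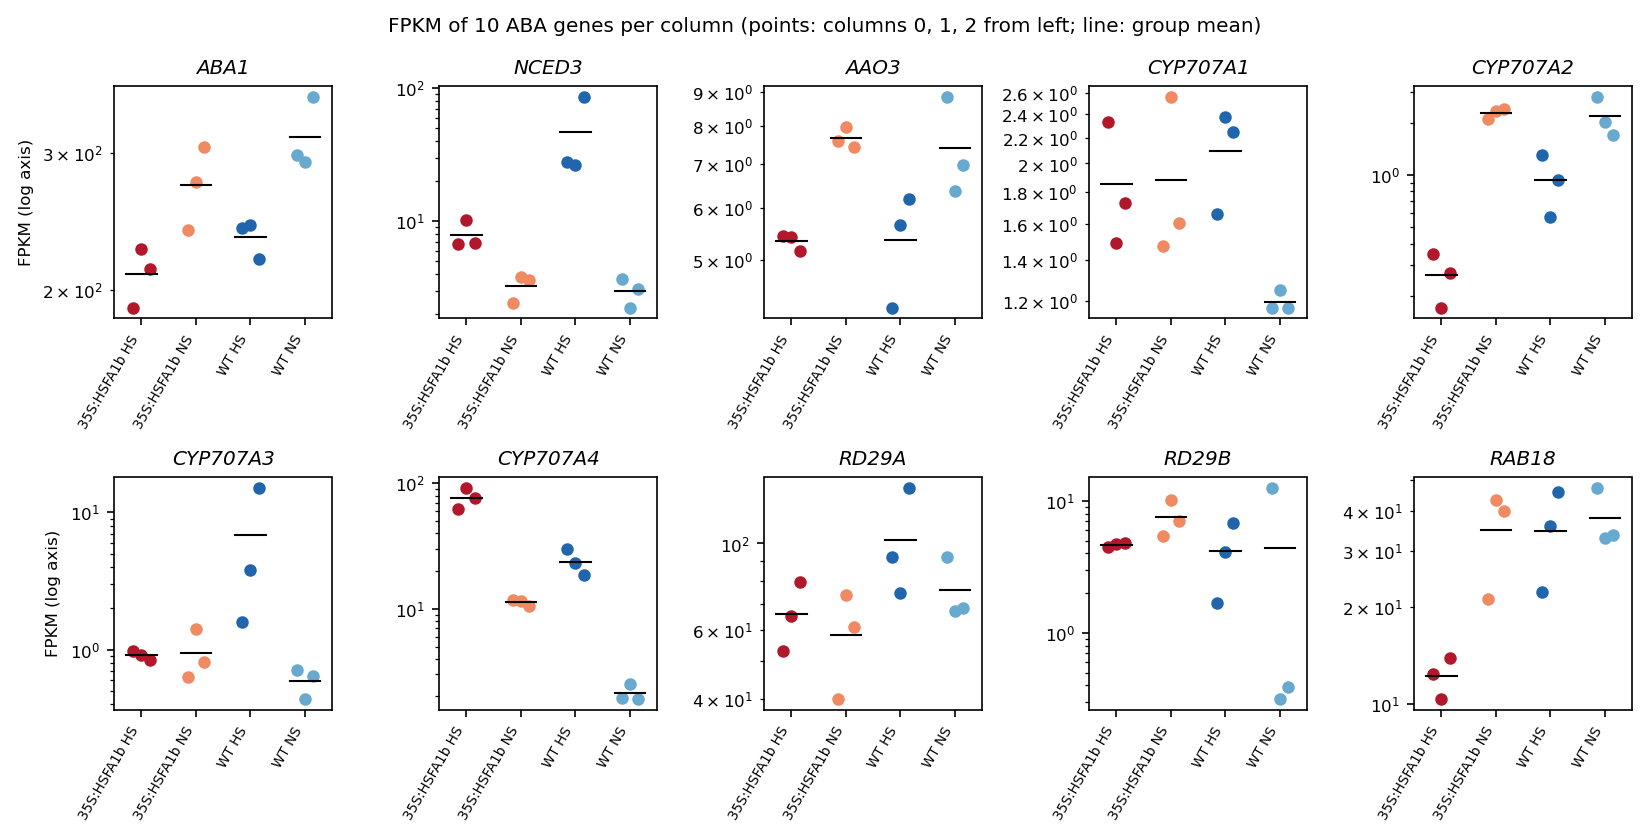
FPKM (log axis, scaled separately for each gene) of the 10 ABA genes in each of the 3 columns (points) of 35S:HSFA1b HS, 35S:HSFA1b NS, WT HS and WT NS, with a line at the group mean. CYP707A4 reached 62.4 to 91.9 FPKM in 35S:HSFA1b HS, above every other column, whereas NCED3 and CYP707A3 were highest in WT HS, with 1 column well above the other 2.

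The synthesis genes did not move together. NCED3, the dioxygenase of the step thought to limit synthesis, was at 27.8, 26.6 and 86.2 FPKM in WT HS, against 3.68, 2.23 and 3.07 FPKM in WT NS. All 3 heated columns lay above all 3 controls, and column 2 stood at about 3 times the level of the others. The log2 fold change was 3.76 ± 0.43 (SE; limma adjusted p = 0.00027), and leaving out single columns kept it between 3.21 and 4.06. In the 35S:HSFA1b line, NCED3 was at 6.77, 10.2 and 6.83 FPKM in HS, against 2.45, 3.78 and 3.62 FPKM in NS. The columns again did not overlap, as for 58.9% of all genes in this comparison, and the log2 fold change was smaller, 1.27 ± 0.40 (SE; limma adjusted p = 0.0268). This call was lost without 35S:HSFA1b NS column 0 or 2 or 35S:HSFA1b HS column 1, with limma adjusted p of 0.0911, 0.0518 and 0.0966, and without 35S:HSFA1b NS columns 0 and 1 together (0.224). Compared directly under HS, 35S:HSFA1b plants had less NCED3 transcript than WT (log2 difference -2.36 ± 0.40, SE; limma adjusted p = 0.0016), a call that held with every column left out. Under NS the genotypes did not differ detectably, at 0.14 with a 95% confidence interval of -0.84 to 1.12.

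ABA1, which makes the epoxycarotenoids and also serves the xanthophyll cycle of the chloroplast, was the most abundant of the 10 transcripts on the FPKM scale in every group. It was at 240, 242 and 219 FPKM in WT HS, against 298, 292 and 355 FPKM in WT NS, and all heated columns lay below the controls. The decrease was small, -0.43 ± 0.12 (SE) on the log2 scale (limma adjusted p = 0.0197), and the call was lost without WT NS column 2 (adjusted p = 0.0734) or WT HS column 2 (adjusted p = 0.0544). In 35S:HSFA1b plants the levels were 190, 226 and 213 FPKM in HS, against 239, 275 and 305 FPKM in NS, a change of -0.38 ± 0.11 (SE; limma adjusted p = 0.0205). That call was lost without 35S:HSFA1b NS column 1 (limma adjusted p = 0.0558) or 2 (0.0731) or HS column 0 (0.0793). The response of ABA1 to HS differed between the genotypes by 0.05, with a 95% confidence interval of -0.31 to 0.40.

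AAO3, the oxidase of the last step, showed a decrease of the same order. Its levels were 5.45, 5.42 and 5.17 FPKM in 35S:HSFA1b HS, against 7.58, 7.96 and 7.44 FPKM in 35S:HSFA1b NS, with no overlap and a log2 change of -0.52 ± 0.15 (SE; limma adjusted p = 0.0192). In WT it was at 4.24, 5.66 and 6.20 FPKM in HS, against 8.86, 6.37 and 6.97 FPKM in NS. The columns did not overlap there either, as for 54.4% of all tested genes, and -0.47 ± 0.17 (SE) fell just short of the threshold (limma adjusted p = 0.0504). It passed in 6 of the alternative settings, among them both rescalings of the columns (0.0227 with quantile normalization and 0.0179 with equal medians). In the other settings limma adjusted p ranged up to 0.101. Only 2 of the 9 fits that left out a column called the WT decrease, with limma adjusted p up to 0.145. The call in 35S:HSFA1b was lost without NS column 1 (limma adjusted p = 0.0592), HS column 2 (0.0583) or NS columns 0 and 1 together (0.183). Under NS the line stood at 0.06 relative to WT, with a 95% confidence interval of -0.32 to 0.45. AAO3 shares 985 bp with AT2G27160 on the opposite strand, which is listed at 0 in all 12 columns. ABA1 lies at chr5:26753469-26757402, NCED3 at chr3:4831286-4834015 and AAO3 at chr2:11601727-11608450 (TAIR10.1).

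**Figure D2:**
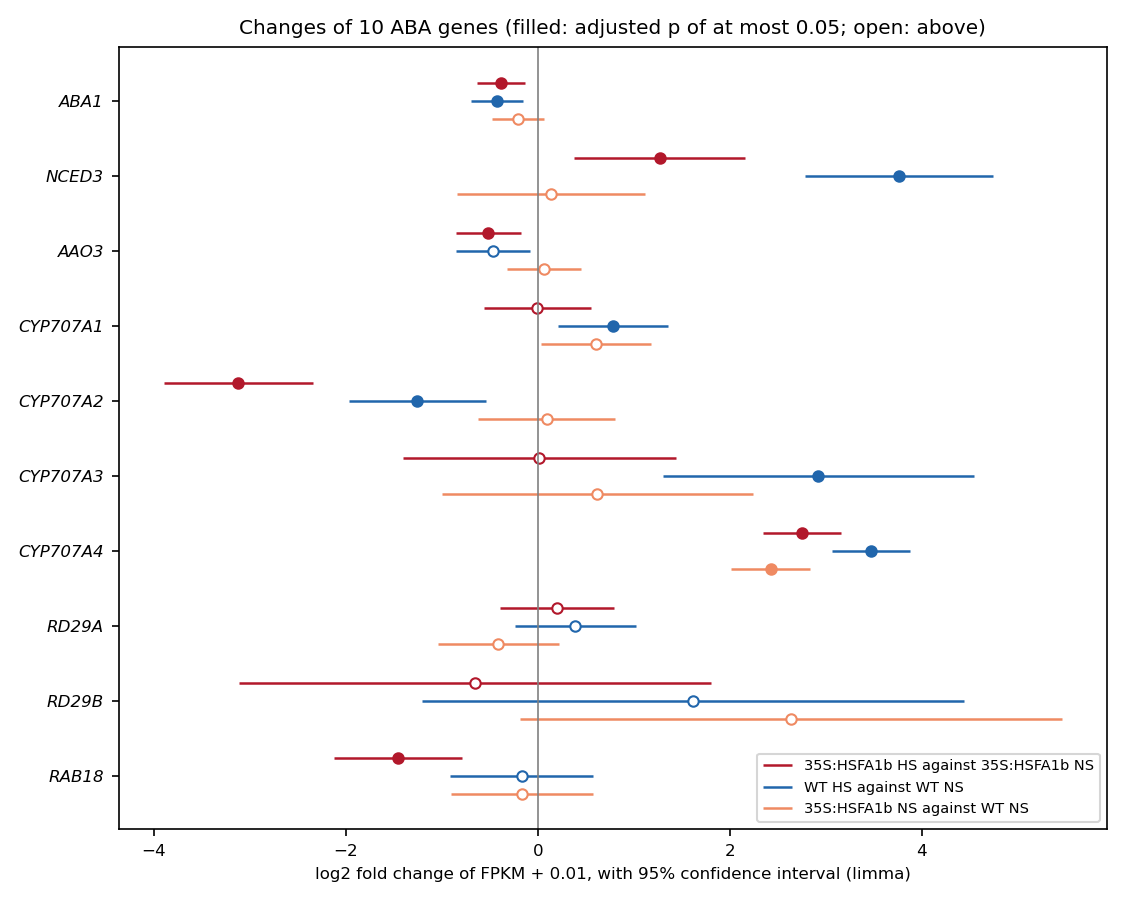
Log2 fold changes of FPKM + 0.01 for the 10 ABA genes, with 95% confidence intervals (lines) from limma, for HS against NS in 35S:HSFA1b, HS against NS in WT, and 35S:HSFA1b NS against WT NS. Filled points passed an adjusted p of 0.05. NCED3 is at 1.27 in 35S:HSFA1b and 3.76 in WT, CYP707A2 at -3.12 and -1.25, and CYP707A4 alone is filled in all 3 comparisons.

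The 4 CYP707A genes, whose enzymes catalyse the same hydroxylation of ABA, each followed their own course. CYP707A4 (chr3:6673689-6676521) was called in all 4 comparisons between groups. It stood at 62.4, 91.9 and 77.1 FPKM in 35S:HSFA1b HS, 11.7, 11.6 and 10.6 FPKM in 35S:HSFA1b NS, 29.8, 23.1 and 18.6 FPKM in WT HS, and 1.93, 2.52 and 1.90 FPKM in WT NS. The 4 groups thus formed 4 separate levels with no overlap between any of them, where 36.7% of all genes did not overlap between the genotypes under NS and 43.2% under HS. HS raised it by 2.75 ± 0.19 (SE) on the log2 scale in 35S:HSFA1b (limma adjusted p = 2.2e-06) and by 3.47 ± 0.18 in WT (1.87e-06). Without stress it was 2.42 ± 0.18 higher in 35S:HSFA1b than in WT (limma adjusted p = 7.2e-05), the only 1 of the 10 genes called in that comparison. Under HS it was 1.70 ± 0.19 higher in 35S:HSFA1b than in WT (limma adjusted p = 8.7e-05). All 4 calls held with every column left out in turn. The NS call also held without 35S:HSFA1b NS columns 0 and 1, an alternative added after the data were seen because of their low mesophyll markers (2.33, limma adjusted p = 0.0223, with the lone remaining column assumed to vary like the other groups). The heat response itself was 0.72 smaller on the log2 scale in 35S:HSFA1b than in WT, which did not pass the test (95% confidence interval of the difference -1.30 to -0.14, limma adjusted p = 0.0976).

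CYP707A3 (chr5:18368532-18371021), known in Arabidopsis for its part in lowering ABA after rehydration, was at 0.987, 0.921 and 0.840 FPKM in 35S:HSFA1b HS and 0.638, 1.41 and 0.819 FPKM in 35S:HSFA1b NS. In WT it was at 1.58, 3.797 and 15.0 FPKM in HS, against 0.713, 0.436 and 0.640 FPKM in NS. The WT HS columns spanned nearly a 10-fold range but all lay above the WT NS columns, and column 2 was the highest, as for NCED3. The increase in WT was 2.92 ± 0.71 (SE; limma adjusted p = 0.0106) and stayed past the threshold with any 1 column left out, at 2.05 without WT HS column 2 and 3.67 without WT HS column 0. CYP707A3 passed the filter only through its WT HS values, which favours this call and the comparison of genotypes under HS. In 35S:HSFA1b the change was 0.02, with a 95% confidence interval of -1.40 to 1.44, and in WT that interval was 1.30 to 4.54, so the intervals overlapped. The difference between the 2 responses was -2.90 and did not pass (limma adjusted p = 0.0625). Under HS, 35S:HSFA1b plants had less CYP707A3 transcript than WT (-2.28 ± 0.64, SE; limma adjusted p = 0.022). It ranged from -1.41 without WT HS column 2 to -3.03 without WT HS column 0. This last call was lost when only the groups compared entered the fit (adjusted p = 0.0761) or without any 1 of the 35S:HSFA1b HS columns, where adjusted p ranged up to 0.064.

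CYP707A2 (chr2:12494826-12499723), the member best known from seeds, fell in both genotypes. It was at 0.350, 0.170 and 0.269 FPKM in 35S:HSFA1b HS, against 2.102, 2.33 and 2.38 FPKM in 35S:HSFA1b NS. In WT it was at 1.30, 0.573 and 0.933 FPKM in HS, against 2.82, 2.01 and 1.70 FPKM in NS. The decrease was 3.12 ± 0.35 on the log2 scale in the line and 1.25 ± 0.31 in WT, and no heated column reached its controls. Limma gave adjusted p of 6.2e-05 in 35S:HSFA1b and 0.012 in WT, and both calls held with every column left out. CYP707A1 (chr4:10521259-10523961) was at 2.33, 1.49 and 1.73 FPKM in 35S:HSFA1b HS, 1.47, 2.56 and 1.61 FPKM in 35S:HSFA1b NS, 1.66, 2.38 and 2.25 FPKM in WT HS and 1.17, 1.25 and 1.17 FPKM in WT NS. The WT NS columns were below all others. HS raised it in WT by 0.78 ± 0.25 (SE; limma adjusted p = 0.0327), a call lost in 5 of the 9 fits that left out a column. In 35S:HSFA1b the HS change was 0.00 with a 95% confidence interval of -0.56 to 0.55. Under NS the line was 0.60 above WT, short of the threshold (95% confidence interval 0.03 to 1.17, limma adjusted p = 0.162).

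Summed over the 4 genes, CYP707A transcripts amounted to 80.1 ± 14.2 FPKM in 35S:HSFA1b HS, 16.4 ± 1.32 in 35S:HSFA1b NS, 33.7 ± 3.55 in WT HS and 6.09 ± 0.625 in WT NS (SD, n = 3 each). The makeup of this sum differed between the groups. CYP707A4 took 96.1 ± 1.45% of it in 35S:HSFA1b HS, 69.1 ± 4.39% in 35S:HSFA1b NS, 71.6 ± 18.8% in WT HS and 34.9 ± 5.72% in WT NS (SD, n = 3 each). In WT NS, CYP707A2 made up 35.4% and CYP707A1 19.8% on average, whereas in WT HS column 2 CYP707A3 alone made up 40.8%. The ratio of NCED3 to the summed CYP707A genes was 0.0985 ± 0.0116 in 35S:HSFA1b HS, 0.200 ± 0.0418 in 35S:HSFA1b NS, 1.35 ± 0.861 in WT HS and 0.494 ± 0.116 in WT NS (SD, n = 3 each). The WT HS mean leaned on column 2, at 2.34, and was 0.850 without it. Every 35S:HSFA1b column lay below every WT column in this ratio. An exact two-sided permutation test of 3 columns against 3 cannot give a p below 0.1, so the sums, shares and ratios are given as descriptions.

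**Figure D3:**
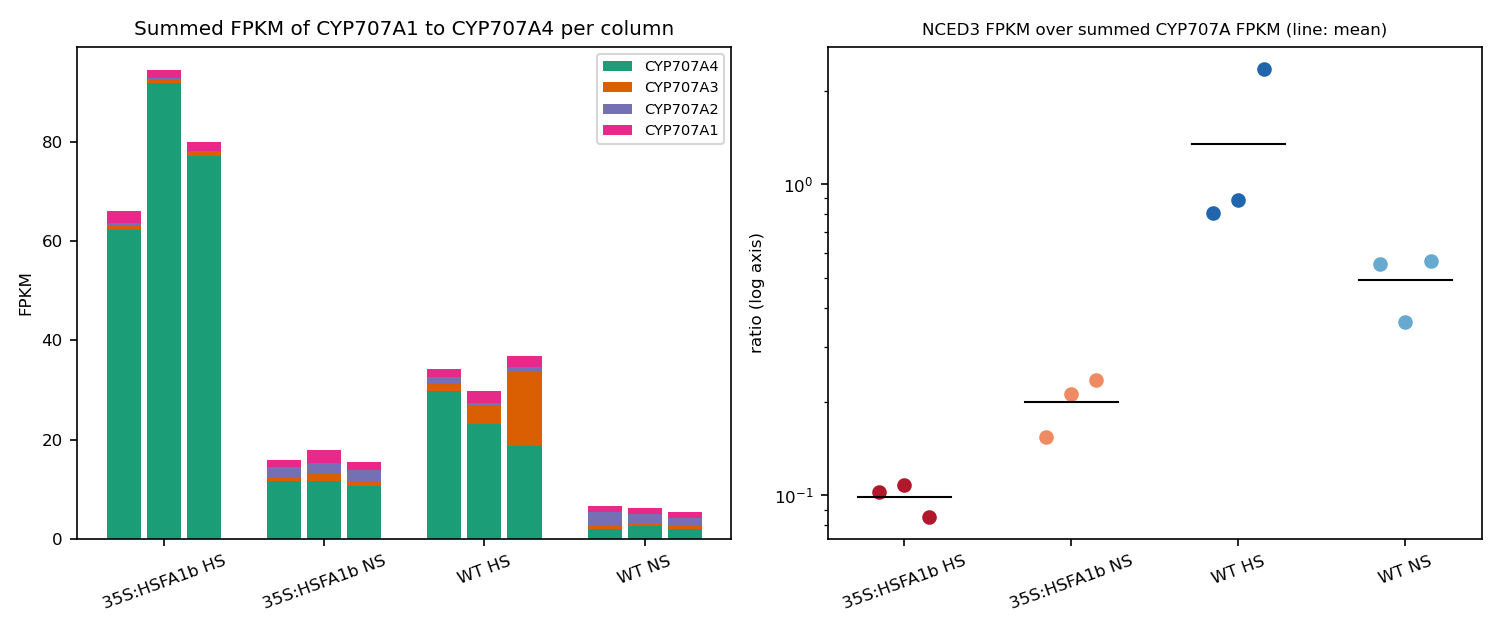
Left, FPKM of the 4 CYP707A genes stacked to their sum in each of the 12 columns, and right, the ratio of NCED3 FPKM to that sum on a log axis, with points for columns and a line at the mean. CYP707A4 makes up 96.1% of the bar on average in 35S:HSFA1b HS and 34.9% in WT NS, and the ratio averages 0.0985 in 35S:HSFA1b HS and 1.35 in WT HS, where it is 0.850 without the high column 2.

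The 250 bases before the annotated start of each gene were searched on both strands for 4 short motifs, in RefSeq sequence of TAIR10.1. They were a heat shock element GAANNTTC, the ABRE core ACGTG, the G-box CACGTG, which contains the ABRE core, and the core of the dehydration-responsive element (DRE), CCGAC. Of the 27443 windows of protein-coding genes, 9.55% held the heat shock element and none of the 10 ABA genes did. Other forms of this element, and sequence inside or farther from the genes, were not searched. The study lists NCED3 among the target genes of HSFA1b, so the lack of a match here does not mean a lack of binding. The ABRE core was in 22.9% of all windows and in those of ABA1, CYP707A1, CYP707A3, CYP707A4, RD29B and RAB18. The G-box was in 6.49% of all windows and, among the 10, in CYP707A1 and CYP707A3, the closest pair of paralogs here (82.9% identity over 1309 bp of transcript). The windows of these 2 and of CYP707A4 are shown because all 3 genes rose in WT under HS, while of the 3 only CYP707A4 passed the test for HS in the line. They lie at chr4:10521009-10521258 on the plus strand for CYP707A1, chr5:18371022-18371271 on the minus strand for CYP707A3 and chr3:6676522-6676771 on the minus strand for CYP707A4, each written in the direction of the gene with the motifs in capitals.
CYP707A1: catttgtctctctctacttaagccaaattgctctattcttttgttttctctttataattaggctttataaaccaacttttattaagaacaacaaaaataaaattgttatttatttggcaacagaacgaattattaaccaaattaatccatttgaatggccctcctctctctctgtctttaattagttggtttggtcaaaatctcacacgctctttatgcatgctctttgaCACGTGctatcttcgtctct
CYP707A3: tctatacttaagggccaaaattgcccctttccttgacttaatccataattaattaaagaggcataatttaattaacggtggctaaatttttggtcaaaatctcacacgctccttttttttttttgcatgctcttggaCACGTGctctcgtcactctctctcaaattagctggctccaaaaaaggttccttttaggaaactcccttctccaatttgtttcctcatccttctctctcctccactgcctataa
CYP707A4: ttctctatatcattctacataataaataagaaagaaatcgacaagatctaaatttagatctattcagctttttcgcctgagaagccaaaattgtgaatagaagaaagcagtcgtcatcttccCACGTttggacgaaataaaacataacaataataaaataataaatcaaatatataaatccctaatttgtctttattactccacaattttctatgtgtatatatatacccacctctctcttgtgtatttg
CYP707A1 and CYP707A3 carry the capitals of a G-box, and CYP707A4 those of 1 ABRE core on the other strand. A match is a run of letters and not a shown binding site. The difference between the HS responses of the 2 genotypes did not pass for any of these 3 genes. A link between motifs and responses was not tested.

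The 3 response genes, all known to be induced by ABA or drought, showed no increase past the threshold after 30 min of HS in either genotype. With limma, 0 of the 3 passed in WT, where 44.5% of all tested genes were called, and 0 had an unadjusted p under 0.05. Over all tested genes, 23.7% were called upward in WT and 22.6% in the line. With 3 genes these counts do not set the response genes apart from the background. RAB18 (chr5:26518277-26519447), a dehydrin induced by ABA, was at 12.4, 10.3 and 13.9 FPKM in 35S:HSFA1b HS, against 21.3, 43.2 and 40.0 FPKM in 35S:HSFA1b NS. All heated columns of the line lay below its controls, a change of -1.45 ± 0.30 (SE; limma adjusted p = 0.0031) that held with every column left out. In WT it was at 22.3, 35.9 and 45.6 FPKM in HS, against 47.0, 32.9 and 33.5 FPKM in NS, with overlapping columns and a change of -0.17 (95% confidence interval -0.91 to 0.57). Under HS, RAB18 was lower in 35S:HSFA1b than in WT by a log2 difference of -1.45 ± 0.30 (SE; limma adjusted p = 0.0048). The difference between the 2 responses, -1.29, did not pass (limma adjusted p = 0.0751). RAB18 overlaps PLP3b on the opposite strand by 11 bp.

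RD29A (chr5:21240717-21243644), induced by cold and drought as well as by ABA, was at 52.9, 65.1 and 79.5 FPKM in 35S:HSFA1b HS and 39.9, 73.9 and 61.2 FPKM in 35S:HSFA1b NS. In WT it was at 92.4, 74.7 and 139 FPKM in HS and 92.5, 67.3 and 68.3 FPKM in NS. The groups overlapped in all 4 comparisons and none passed the test. The 95% confidence interval of the HS change was -0.39 to 0.80 in the line and -0.24 to 1.02 in WT. RD29B (chr5:21237021-21239531), which depends mainly on ABA, was at 4.45, 4.67 and 4.75 FPKM in 35S:HSFA1b HS, 5.45, 10.13 and 6.98 FPKM in 35S:HSFA1b NS, 1.68, 4.07 and 6.74 FPKM in WT HS, and 12.5, 0.314 and 0.387 FPKM in WT NS. The first WT NS column was thus far above the other 2, and no comparison of RD29B passed, although HS against NS in the line did when only these groups entered the fit (-0.65, limma adjusted p = 0.0311). Without that column, RD29B rose in WT under HS by 3.33 (limma adjusted p = 0.0024) and was 4.34 higher in 35S:HSFA1b than in WT under NS (limma adjusted p = 0.0024), and the difference of the responses was -3.98 (limma adjusted p = 0.0033). The calls for RD29B therefore turned on 1 column.

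RD29A and RD29B are neighbours in tandem, with 1185 bp between them, and share 74.1% identity over 928 bp of transcript. Their windows are shown because the motifs found within these 250 bases differ, 3 DRE cores for RD29A, and 4 ABRE cores and 1 DRE core for RD29B. The DRE core was in 11.97% of all windows. They lie at chr5:21240467-21240716 and chr5:21236771-21237020, both on the plus strand, with the motifs in capitals.
RD29A: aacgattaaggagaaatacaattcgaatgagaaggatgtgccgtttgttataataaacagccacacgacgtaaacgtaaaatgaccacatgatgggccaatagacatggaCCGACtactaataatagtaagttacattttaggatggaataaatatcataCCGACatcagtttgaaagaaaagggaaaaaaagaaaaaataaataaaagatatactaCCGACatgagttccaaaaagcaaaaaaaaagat
RD29B: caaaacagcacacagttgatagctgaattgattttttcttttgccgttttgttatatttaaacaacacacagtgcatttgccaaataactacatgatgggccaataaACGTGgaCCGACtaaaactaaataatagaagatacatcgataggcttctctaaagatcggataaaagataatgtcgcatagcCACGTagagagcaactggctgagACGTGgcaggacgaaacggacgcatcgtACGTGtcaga
The cores of RD29A begin 140, 90 and 33 bases before the annotated start. Sequence outside the windows was not searched, so the counts do not show that RD29A lacks an ABRE.

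The columns of a group did not stand alike for ABA-responsive genes. Taking RD29A, RD29B, RAB18 and 12 further ABA-responsive genes that passed the filter, WT NS column 0 was the highest of its group in 14 of 15 and column 1 the lowest in 15 of 15. Over all 17720 genes, these columns were the highest for 37.4% and the lowest for 35.5%. Column 0 of 35S:HSFA1b NS was the lowest of its group in 15 of 15 (33.7% over all genes), and WT HS column 2 the highest in 12 of 15 (39.2% over all genes). The pattern was seen after the values were known and was not tested. WT HS column 2 was also the column with the highest NCED3 and CYP707A3 and the lowest CYP707A4 of its group.

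**Figure D4:**
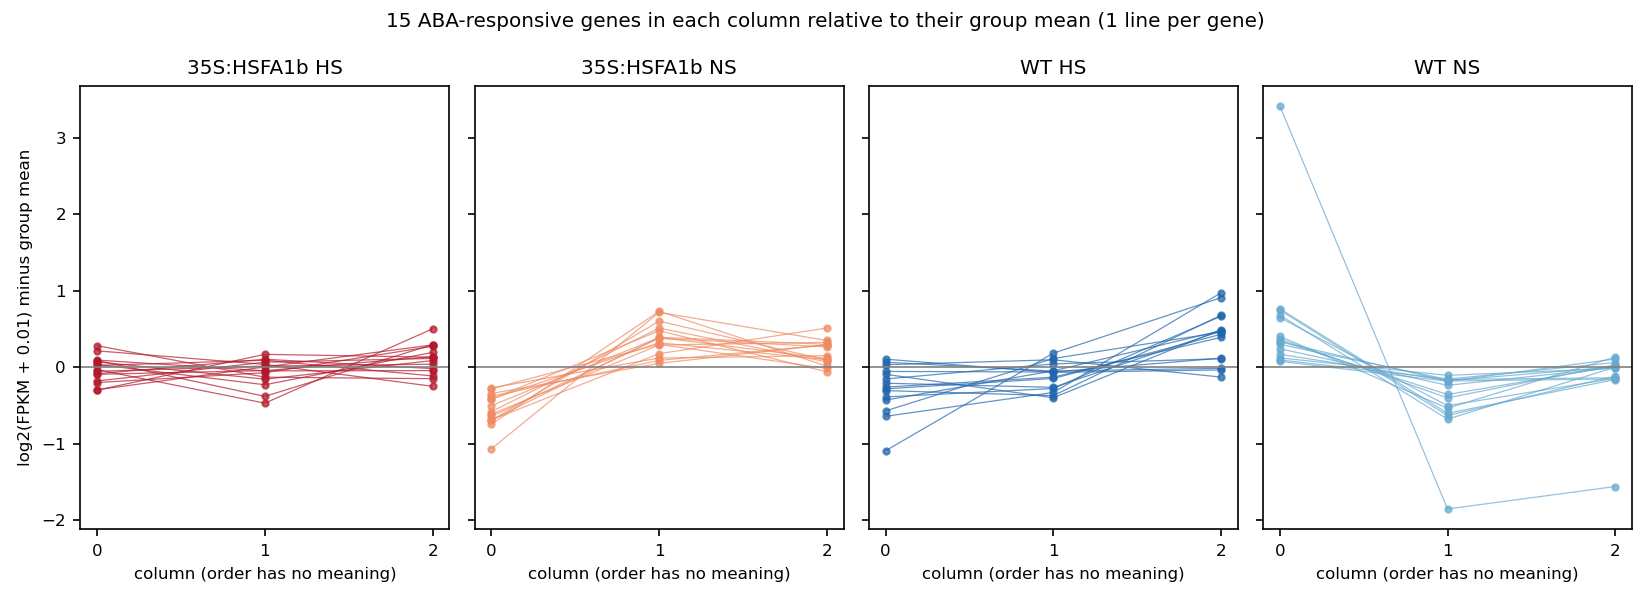
Log2(FPKM + 0.01) of 15 ABA-responsive genes (RD29A, RD29B, RAB18 and 12 others; 1 line per gene) in each column, minus the mean of its group, for 35S:HSFA1b HS, 35S:HSFA1b NS, WT HS and WT NS. Column 0 is lowest for 15 of 15 genes in 35S:HSFA1b NS and highest for 14 of 15 in WT NS, where the line that leaves the others is RD29B.

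The 2 responses to HS were then compared with each other. The difference, 35S:HSFA1b minus WT, passed for 2 of the 10 genes, both negative, where 11.9% of all genes were called, 3.94% positive and 7.97% negative. NCED3 responded less in the line (-2.50 ± 0.57, SE; limma adjusted p = 0.0193), and CYP707A2 fell further (-1.86 ± 0.50, SE; limma adjusted p = 0.0362). Neither call was steady. NCED3 passed in 8 of 12 fits with a column left out, with adjusted p between 0.0056 and 0.0531, and CYP707A2 in 4 of 12, with adjusted p between 0.0204 and 0.0899. CYP707A2 was only at 0.170 to 0.350 FPKM in 35S:HSFA1b HS. With a pseudocount of 1 its difference shrank to -0.66 (limma adjusted p = 0.0950). With quantile normalization it was -1.89 and was not called either (limma adjusted p = 0.0623). Under HS, 35S:HSFA1b differed from WT in 5 of the 10 genes, 1 higher (CYP707A4) and 4 lower (NCED3, CYP707A2, CYP707A3 and RAB18), against 28.9% of all genes, 12.1% higher and 16.8% lower. For CYP707A2 that difference was -1.77 ± 0.35 (SE; limma adjusted p = 0.0038). It averaged 0.263 FPKM in 35S:HSFA1b HS and 0.937 FPKM in WT HS, so it passed the filter of 1 FPKM only through its NS columns. With only these groups in the fit, CYP707A2 was not tested. CYP707A3 passed the filter only through WT HS, where it was high. These contrasts share columns, so they are not separate evidence.

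Among 53 other genes of the pathway, taken from a list by role, 37 passed the filter and 4 were at 0 in every column. In the line, HS raised 11 and lowered 8 of the 37 (22.6% and 19.7% of all tested genes), with a median log2 fold change of -0.16. In WT, HS raised 17 and lowered 5 (23.7% and 20.8% of all tested genes), with a median of 0.61. Without stress, 4 were higher and 2 lower in 35S:HSFA1b than in WT (6.12% and 3.65% of all tested genes), with a median of 0.27. The difference of the 2 HS responses passed for 11 of the 37, 2 positive and 9 negative (3.94% and 7.97% of all tested genes), with a median of -0.55 where the median over all genes was 0.00. The counts by role below are to be read against the same shares, and no test compared the genotypes for a role as a whole.

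Of 3 ABA-activated kinases, HS raised 2 and lowered 1 in the line, and raised 2 and lowered 1 in WT, where 44.5% of all genes were called. SNRK2.3 was at 95.02, 106 and 100.2 FPKM in 35S:HSFA1b HS, 26.2, 31.0 and 25.6 FPKM in 35S:HSFA1b NS, 131, 134 and 177 FPKM in WT HS and 7.82, 7.94 and 8.498 FPKM in WT NS. Like CYP707A4 it was higher in the line than in WT under NS (1.76 ± 0.13, SE; limma adjusted p = 6.76e-05) and rose with HS in WT (4.17 ± 0.13, SE; limma adjusted p = 7.21e-08). Of the 7 receptor genes that passed the filter, 3 rose and 2 fell in WT under HS (23.7% and 20.8% of all genes), with the largest change in PYR1 (-1.03 ± 0.16, SE; limma adjusted p = 0.00119), and no receptor differed between the genotypes under NS, where 0 of 7 also had an unadjusted p under 0.05 with limma. Of 4 transport genes, DTX50, an ABA exporter, was at 4.58, 8.26 and 33.2 FPKM in WT HS, against 1.09, 0.798 and 0.473 FPKM in WT NS, with column 2 again the highest (3.84 ± 0.65, SE; limma adjusted p = 0.00194). NPF4.6, an importer, was 0.93 ± 0.09 (SE) higher in the line than in WT under NS (limma adjusted p = 0.000331). UGT71B6, which conjugates ABA to glucose, was at 2.01, 3.82 and 13.02 FPKM in WT HS, against 1.37, 0.317 and 0.331 FPKM in WT NS (3.12 ± 0.79, SE; limma adjusted p = 0.01255), and like CYP707A3 it passed the filter only through WT HS, where it was high. The related UGT71C5 was lower in the line under NS (-0.36 ± 0.09, SE; limma adjusted p = 0.0383).

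Of 4 ABA transcription factor genes that passed the filter, 2 rose in WT under HS (23.7% of all genes), with the largest change in ABF1 (0.86 ± 0.18, SE; limma adjusted p = 0.00505). ABA2, the dehydrogenase between NCED and AAO3, fell in WT under HS by 0.48 on the log2 scale (limma adjusted p = 0.00786). Of 12 further ABA-responsive genes, 3 rose and 2 fell under HS in the line (22.6% and 19.7% of all genes), and 7 rose and none fell in WT (23.7% and 20.8% of all genes). The difference of the responses passed for 3 of the 12, all negative (7.97% of all genes). KIN1, a small hydrophilic protein induced by cold and ABA, was at 131, 94.5 and 151 FPKM in 35S:HSFA1b HS, 107, 226 and 212 FPKM in 35S:HSFA1b NS, 63.8, 79.3 and 196 FPKM in WT HS and 20.5, 7.87 and 11.3 FPKM in WT NS. It was 3.82 ± 0.50 (SE) higher in the line than in WT under NS (limma adjusted p = 0.00213) and rose by 3.03 ± 0.50 in WT under HS (0.00167). KIN1 is 91.7% identical to KIN2 over 505 bp, so reads may be split between them, and ABA2, UGT71B6, ABF1 and SNRK2.3 each overlap a gene on the opposite strand.

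**Figure D5:**
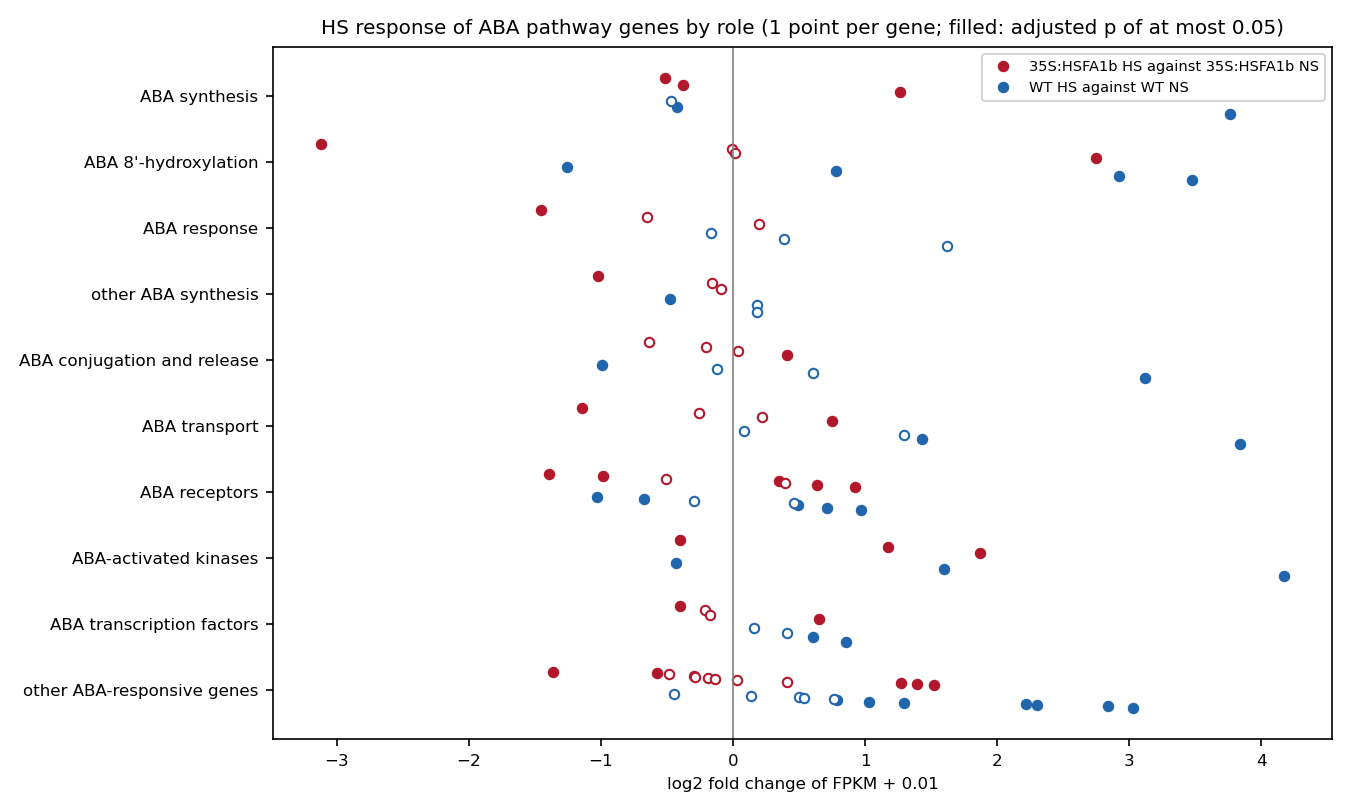
Log2 fold change of FPKM + 0.01 under HS for each of the 10 ABA genes and 37 other pathway genes, 1 point per gene, grouped by role, in 35S:HSFA1b (upper points of each role) and WT (lower points). Filled points passed a limma adjusted p of 0.05. Among the 12 other ABA-responsive genes, 3 rose and 2 fell in 35S:HSFA1b (22.6% and 19.7% of all genes), and 7 rose and none fell in WT (23.7% and 20.8% of all genes).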

How the data were processed

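Per the study, filtered read pairs were aligned by GSNAP against known transcripts (build TAIR10), and the authors ran Cufflinks and Cuffdiff with geometric normalization of libraries and deposited 1 FPKM value per locus and column. No read counts were used here, so counting error is unknown and the spread between 3 columns is the only measure of precision. Whether reads were assigned by strand is not given in the sources used here. Columns were assigned to groups by genotype and treatment, and replicates are biological per the study.

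Tests used limma 3.58.1 in R 4.3.3 on log2(FPKM + 0.01), with an intensity trend, a filter at a mean of 1 FPKM and Benjamini-Hochberg adjustment. A fold change on this scale understates changes of low genes. WT HS against WT NS and 35S:HSFA1b NS against WT NS came from 1 fit of 9 columns, all else from a fit of 12. Positions, windows and overlaps were read from RefSeq's annotation of TAIR10.1 (all 79 listed loci and 32810 of 33557 table loci matched), and copies from BLAST+ 2.17.0. Python 3.11.15 was used for tables and figures.

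The 10 genes and the lists were chosen with earlier results of these data known. Besides the 10, the text names, for each role of the pathway list, the called gene with the largest absolute change in WT HS against WT NS and in 35S:HSFA1b NS against WT NS, and the 2 genes nearest to each of the 10 by Pearson's r. Alternatives covered the pseudocount, filter, scaling, variance model, groups in the fit and each column left out in turn.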

Additional observations from a re-analysis of the deposited data

Results flagged for a closer look

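Among the 10 ABA genes and the pathway genes named by role, 7 had an HS response that differed between 35S:HSFA1b and WT. The limma test of that difference was used (35S:HSFA1b minus WT, log2 scale, 12 columns, Benjamini-Hochberg adjustment over 17720 genes, of which 11.9% were called). Genes nearest by Pearson's r were not included. The pathway genes were picked by their change, so the count of 7 cannot be set against that share. NCED3 differed by -2.50 ± 0.57 (SE; adjusted p = 0.0193) and CYP707A2 by -1.86 ± 0.50 (adjusted p = 0.0362). The other 5 genes were named for their change in WT HS against WT NS or in 35S:HSFA1b NS against WT NS, which share columns with this difference, so a large value for them is partly set by how they were chosen. SNRK2.3 differed by -2.30 ± 0.17 (adjusted p = 6.93e-06), DTX50 by -4.10 ± 0.84 (adjusted p = 0.0114), KIN1 by -3.52 ± 0.65 (adjusted p = 0.0067) and NPF4.6 by -0.68 ± 0.13 (adjusted p = 0.00716). UGT71C5 differed the other way, by 0.53 ± 0.14 (adjusted p = 0.0354). SNRK2.3, KIN1 and NPF4.6 were already higher in 35S:HSFA1b than in WT under NS, and UGT71C5 was lower. All 3 libraries of 35S:HSFA1b HS carry another name prefix than the WT libraries, so genotype and prefix cannot be told apart in these differences.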

How the results depend on the processing

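No paired analysis was possible because the columns are numbered 0 to 2 and the library labels 1 to 3, with nothing that ties them, so the planned fit with a replicate block was not run. Of the single-gene values under other settings, 437 kept direction and call, 7 gained a call, 5 lost one and 13 changed sign, and none of these 13 passed the threshold. These counts do not include the fits that left out a column. In those fits 477 values kept direction and call, 9 gained a call, 30 lost one and 24 changed sign.

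With quantile normalization, the sign turned in 35S:HSFA1b NS against WT NS for ABA1 (0.062), AAO3 (-0.052), CYP707A2 (-0.081) and CYP707A3 (-0.18), in HS against NS of 35S:HSFA1b for CYP707A1 (0.25), in the difference of responses for AAO3 (0.079) and in 35S:HSFA1b HS against WT HS for ABA1 (0.20). Equal medians turned AAO3 under NS (-0.025), CYP707A1 in 35S:HSFA1b (0.031) and AAO3 in the difference (0.073). A pseudocount of 1 turned CYP707A3 in 35S:HSFA1b (-0.0098). Without 35S:HSFA1b NS columns 0 and 1, RAB18 under NS was at 0.10 and CYP707A1 in 35S:HSFA1b at 0.18, 212 genes in place of 1731 were called under NS and 4475 in place of 7500 in 35S:HSFA1b under HS. All 12 columns in the fit gave 2624 genes under NS. The count of ABA genes in the difference of responses fell to 1 with a pseudocount of 1, with a filter at a mean of 5 FPKM and with quantile normalization, and that of 35S:HSFA1b HS against WT HS to 3 with the filter at 5 FPKM (7 of the 10 tested) and with only the groups compared (9 tested).

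With each column left out, ABA genes called numbered 4 to 6 in WT under HS, 1 to 2 between genotypes under NS, 4 to 6 in 35S:HSFA1b under HS, 0 to 4 in the difference and 4 to 5 between genotypes under HS. All genes called ran from 5876 to 8021, 641 to 2873, 5945 to 8335, 1161 to 3387 and 3660 to 5251 in the same order. Values whose sign turned, given as ranges, were for WT under HS RAB18 (-0.40 to 0.12). Under NS they were RAB18 (-0.35 to 0.16), NCED3 (-0.060 to 0.33), AAO3 (-0.039 to 0.20) and CYP707A2 (-0.070 to 0.29). For 35S:HSFA1b under HS they were CYP707A3 (-0.23 to 0.33), RD29A (-0.050 to 0.40) and CYP707A1 (-0.18 to 0.24). In the difference they were AAO3 (-0.21 to 0.064), ABA1 (-0.047 to 0.13) and RD29A (-0.44 to 0.057), and between genotypes under HS AAO3 (-0.15 to 0.13) and RD29B (-0.18 to 0.82).

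Quantile normalization shifted the median of all genes by -0.14 in WT under HS, where 37.2% in place of 53.3% of called genes were higher, and by 0.14 in the difference (52.7% in place of 33.1%, and 50.2% with equal medians). Equal medians gave 49.6% in place of 62.6% higher under NS, and quantile normalization 54.1% in place of 42.0% between genotypes under HS. The cause of these changes was not tested.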

Other observations

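For each of the 10 ABA genes, the 2 tested genes with the highest Pearson's r over the 12 columns of log2(FPKM + 0.01) are given as a description, since the columns share groups and depth. NCED3 ran closest to UBQ3, a polyubiquitin (r = 0.989), and APX1, an ascorbate peroxidase (r = 0.987). ABA1 ran closest to MDAR4, a monodehydroascorbate reductase (r = 0.981), and SEP2, stress enhanced protein 2 (r = 0.966). AAO3 was nearest to RLP38, a receptor-like protein (r = 0.979), and AT1G59710 (r = 0.977). CYP707A1 was nearest to PNC2, a peroxisomal adenine nucleotide carrier (r = 0.937), and JAZ10, a repressor of jasmonate signalling (r = 0.923). CYP707A2 was nearest to LNG2 (r = 0.983) and AT2G44230 (r = 0.981), and CYP707A3 to AT2G30020, the phosphatase AP2C1 (r = 0.987), and AT1G71950 (r = 0.985). CYP707A4 was nearest to AT1G32090 (r = 0.991) and AT2G05300 (r = 0.99). The response genes were nearest to AIRP2, an E3 ligase of ABA signalling (r = 0.888), and VIP5 (r = 0.878) for RD29A, to CRK24 (r = 0.954) and AT1G51860 (r = 0.953) for RD29B, and to AT1G20490 (r = 0.980) and OZF2 (r = 0.957) for RAB18. RD29A and RD29B, adjacent in the genome, did not have each other among these 2.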
